A study of Caenorhabditis elegans with 12 samples.

Results

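The circular RNAs (circRNAs) described here were those that the deposited count files name by position rather than by a catalogue number, and whose 2 ends lie less than 1000 bases apart in the genome. There were 961 of them among 2136 circRNAs in all. The other 1175 comprised 903 position-named circRNAs with a span of 1000 bases or more and 272 that carry a catalogue name. The rule used only the name and the span. It did not use the counts, the flanking introns or the host genes, while the exonic length and the number of exons are bounded by the span. The limit of 1000 bases fell in a continuous range of spans: the member nearest below it was in F57C9.4, with a span of 998 bases and 1 count, and the circRNA nearest above it was in mpz-1, with a span of 1001 bases and 6 counts.

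A circRNA arises when the splicing machinery joins the end of an exon to the start of the same exon or of an exon upstream of it, a reaction called back-splicing. The product is a closed ring with no cap and no poly(A) tail, which exonucleases that chew RNA from an end cannot attack. Circularised exons are often flanked by long introns, and pairing between those introns can bring the splice sites together. In Caenorhabditis elegans, neurons are rich in circRNAs, and circRNAs are known to accumulate with age.

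RNA was sequenced from whole wild type N2 worms, and every group was fed OP50 bacteria at 20 °C. The 12 libraries were 3 each of Control (no glucose added), Glu (2% glucose, called high-glucose-induced or HGI worms), DMSO+Glu (2% glucose plus the solvent dimethyl sulfoxide) and Nar+Glu (2% glucose plus 25 μM naringin, which is a flavonoid glycoside of citrus fruit, dissolved in DMSO). By the study's methods, exposure began at the L4 larval stage and lasted 5 d with daily transfer to remove progeny, so the worms were adults of 1 age. The RNA was enriched for poly(A) before a stranded library was made, so rings without a tail were counted only as far as they passed that step.

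Markers of the main tissues of a whole worm were present in the gene table, with 65 of 66 neuron genes, 56 of 56 muscle genes and 51 of 51 germline genes of the lists used here. In whole worms, fewer cells of a type and less RNA per cell cannot be told apart. Nothing in the labels says that the 3 libraries of a group came from separate cultures, so p-values measure the spread between these libraries, which may be technical.

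Depth limited every value below. A library held 856 to 1550 circRNA counts in all, and the 961 circRNAs took 252 to 431 of them. A count of 0 in a library allows a level of up to 3.5 counts per 1000 circRNA counts in the shallowest library and up to 1.94 in the deepest. Such limits and the intervals below cover counting error only, since reads made by PCR are not independent molecules.

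Nearly all of these circRNAs had ends at annotated exons. By the study's methods the rings were called with CIRCexplorer2. How far that caller itself selects annotated exon boundaries and genes was not tested. Both ends lay on exon boundaries of 1 annotated transcript in 951 of the 961 (99.0%), and every one of the 961 overlapped an annotated gene on its own strand. Their median span was 446 bases, from 45 to 998, and their median exonic length, with the introns between their exons removed, was 347 bases (interquartile range 254.5 to 457). A ring of 1 exon was found 359 times (37.7% of the 951), a ring of 2 exons 398 times (41.9%), a ring of 3 exons 141 times and a ring of 4 or more exons 53 times. Among the position-named circRNAs of 1000 bases or more, 8 had 1 exon, 182 had 2 and 495 had 4 or more, a difference that the limit on the span itself produces.

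**Figure D1:**
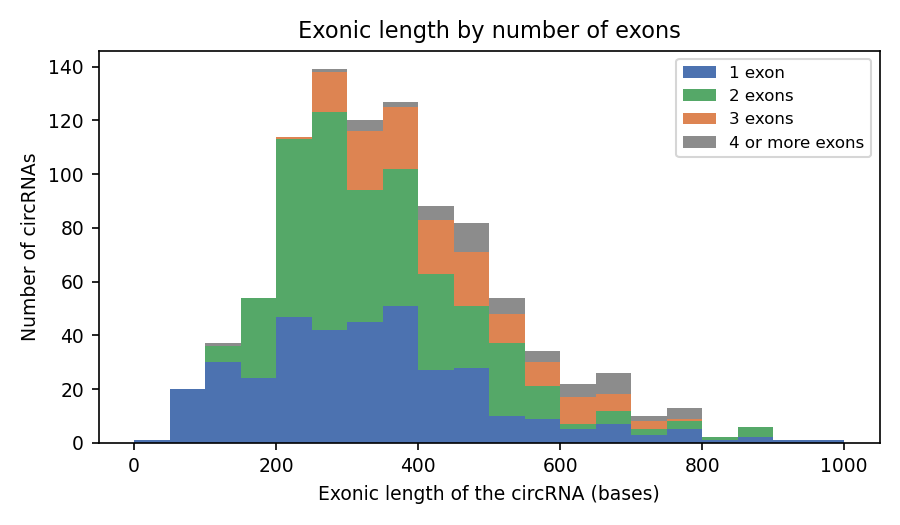
Exonic length in bases of the 951 circRNAs whose ends lie on the exon boundaries of 1 transcript, in bins of 50 bases, stacked by the number of exons in the ring. Rings of 1 and 2 exons make up most of every bin below 400 bases, and the median over all of them is 347 bases.

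The exons that formed a ring alone were long beside the internal exons of the worm. The 359 rings of 1 exon had a median length of 317 bases (interquartile range 219.5 to 411), against 152 bases for the 87562 internal exons of annotated protein-coding transcripts. Of the 359, 323 began after exon 1, and the rest were first exons, which that reference does not hold. The ring began at exon 2 of the transcript in 209 cases (22%) and at exon 1 in 116 (12.2%), and it ended at the last exon in 0. A first exon has no splice acceptor in the annotation, so the 116 rings that begin there use a position that the chosen transcript does not list as an acceptor. In 788 (82.9%) every exonic base was coding. Of these 788, 320 (40.6%) had a length divisible by 3, which would keep a reading frame around the ring, and 39.4% of all internal exons had such a length. The share was 28.1% of the 114 fully coding rings seen in at least 3 libraries and 44.3% of the 551 seen in 1 library. That difference was not tested.

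The introns beside the rings were long. The intron upstream of the ring had a median length of 822 bases and the intron downstream one of 769 bases, while the introns on the 2 sides of an average internal exon had medians of 65 and 62 bases. Both flanking introns were over 500 bases in 461 of the 835 circRNAs that have an intron on each side (55.2%), and in 6.29% of internal exons. Both were under 100 bases in 31 (3.71%), and in 35.8% of internal exons.

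This held within the host transcripts too. Of the 794 circRNAs whose transcript has further introns, 545 (68.6%) had both flanking introns longer than the median of the others in the same transcript, and in 372 (46.9%) 1 of the flanking introns was the longest of the transcript. The other introns of these transcripts had a median of 331 bases, above the 65 and 62 bases at an average exon. The circRNAs of 1000 bases or more had flanking introns of 1031.5 and 966 bases. Among the short-span circRNAs, the 141 seen in at least 3 libraries had flanking medians of 968 and 915.5 bases and the 676 seen in 1 library had 757 and 731 bases. Introns and exons of 1 gene are not independent, so these lengths are given as a description and were not tested.

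**Figure D2:**
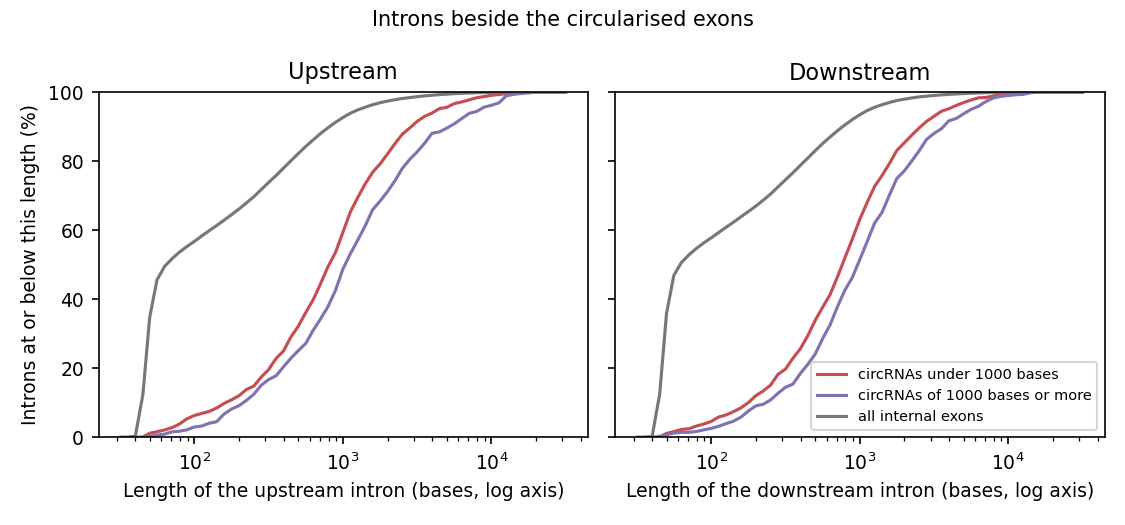
Percentage of flanking introns at or below each length (bases, log axis), upstream on the left and downstream on the right, for circRNAs under 1000 bases, for position-named circRNAs of 1000 bases or more, and for all internal exons. The curve of internal exons rises first, with medians of 65 and 62 bases, and the curve of the short-span circRNAs lies far to its right, with medians of 822 and 769 bases.

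The rings were spread over the genome unevenly. On the WBcel235 assembly, chromosome I held 207 of them, III held 201, II held 171, IV held 144, V held 143 and X held 95. Per 100 protein-coding genes, the number of host genes was 6.59 on III and 6.01 on I, but 2.42 on V and 3.15 on X. When each chromosome was cut into 3 equal stretches, the 2 outer stretches held 71.6% of the circRNAs on X and 77.6% to 82.5% on the autosomes, and 59.4% to 64.2% of the protein-coding genes. The outer stretches of the worm autosomes, called arms, are known to have longer introns than the centres.

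The 961 circRNAs came from 829 host genes, of which 816 were protein-coding. A host gave 1 circRNA in 719 cases, 2 in 93 cases and 3 or more in 17. Host genes were long, with a median of 6959 bases and 9 exons against 2026 bases and 5 exons for all protein-coding genes. The mean linear RNA of a host, in FPKM (fragments scaled to the length of the transcript and the size of the library), had a median of 16.1 over the 788 hosts in the gene table, and the median of all 15365 genes was 5.88. Of those hosts, 77.0% were above the median of all genes and 83 (10.5%) were above 45.6 FPKM, the level that 90% of the table lies below, so the share of hosts among the most abundant genes was close to that of any gene. Among the hosts, the number of counts of a host's circRNAs did not follow its linear level, with a Spearman correlation of 0.0322. The 788 hosts share the same 12 libraries, and most of their rings held few counts. Genes without a ring are not part of that correlation.

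Hosts with 4 rings included afd-1, an afadin homologue of cell junctions, pqn-41, a protein rich in glutamine and asparagine, and smg-6, an endonuclease of nonsense-mediated decay. The 4 rings of pqn-41 were each 1 exon (exons 16, 17, 18 and 21) and held 30, 3, 1 and 4 counts. The 4 rings of smg-6 were also 1 exon each, and its exon 1 ring held 8 of its 11 counts in 1 Glu library. Rings also overlapped, since 84 of the 961 shared their end with another position-named circRNA and more than that shared their start. A circRNA of 1000 bases or more came from 231 of the 829 host genes (27.9%).

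Host genes were counted in 4 lists of genes. Of 56 muscle genes, 15 (26.8%) were hosts, among them dys-1 (dystrophin), unc-52 (perlecan), sca-1 (the calcium pump of the sarcoplasmic reticulum) and vab-10 (spectraplakin). Of 66 neuron and synapse genes, 9 (13.6%) were hosts, among them unc-13, unc-31, unc-2 and slo-1, which act in transmitter release and excitability. Of 51 germline and early embryo genes, 3 (5.88%) were hosts, namely daz-1, larp-1 and mex-3. Over all 19985 protein-coding genes the share was 816 (4.08%). The lists differed in gene length as well, with median lengths of 6941 bases for muscle, 10042 for neuron, 2599 for germline and 2026 for all genes. The part of length in these shares was not tested. The lists also share genes, since slo-1, egl-19 and twk-18 are in both the muscle and the neuron list, and slo-1 counts as a host in both.

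Splicing factors were themselves among the hosts. Of 30 genes for splicing and circRNA processing, 5 (16.7%) held a short-span ring. They were the RNA-binding proteins etr-1, mec-8 and hrpr-1, the SR protein rsp-6 and the exoribonuclease xrn-2, with 15 counts between them. The median gene length was 3729 bases for this list and 2026 for all protein-coding genes. For this list and for the classes by gene name below, the part of length was not tested. By gene name, the classes counted with the highest shares of hosts were vab (4 of 10), tbc (5 of 17), which encodes GTPase-activating proteins of Rab GTPases, zip (3 of 12), egl (5 of 27) and unc (14 of 94), against 4.08% of all protein-coding genes. Of the nhr genes, which encode nuclear hormone receptors, 17 of 269 were hosts, of the collagen family col 2 of 156 and of the lectin family clec 3 of 240.

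Most of the 961 circRNAs were rare. A count was found in 1 library only for 676 (70.3%), in 2 libraries for 144, in 3 or more for 141 and in all 12 for 5. Of the 676, 337 had a single count, 266 had 2 and 38 had 4. The 903 longer position-named circRNAs were as rare, with 71.1% in 1 library, whereas 20.2% of the 272 catalogued ones were seen in 1 library. A few rings held much of the signal. The 5 seen in every library held 807 of the 3855 counts (20.9%), and the 12 with the most counts held 1096 (28.4%).

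**Figure D3:**
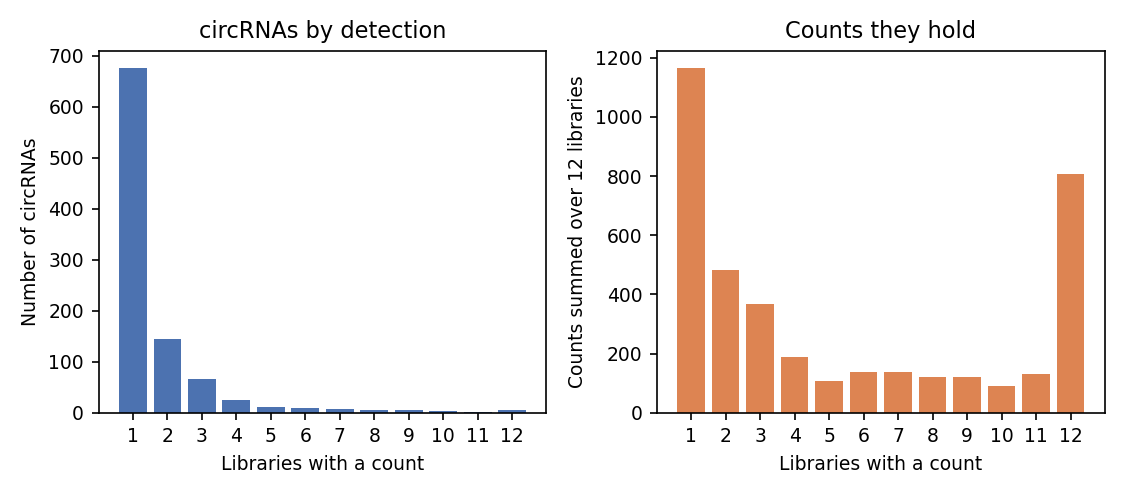
Number of the 961 circRNAs (left) and the counts they hold, summed over 12 libraries (right), by the number of libraries with a count. The 676 circRNAs of 1 library hold 1165 counts, and the 5 circRNAs of all 12 libraries hold 807.

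Even values were frequent among the counts. Over the 1634 values above 0, a count of 1 was found 715 times, 2 was found 581 times, 3 was found 102 times and 4 was found 120 times. The share of even values changed with the exonic length of the ring: it was 36% below 150 bases, 62.2% from 150 to 249 bases, 50.0% from 250 to 349 bases, 41.7% from 350 to 499 bases and 42.0% above. In the 4 groups it was 46.2% to 49.0%. Whether both mates of a read pair were counted at the same junction was not tested, and where that happened a count of 2 stands for 1 molecule.

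The circRNA with the most counts came from Y53F4B.39 on chromosome II (15112168 to 15112626), from exons 2 and 3 of a transcript of 4, with all of its 405 exonic bases coding and flanking introns of 1918 and 2751 bases. Its counts were 12, 21 and 30 in Control, 12, 28 and 22 in Glu, 23, 35 and 22 in DMSO+Glu and 25, 10 and 12 in Nar+Glu. The groups overlapped in each comparison, and the library with the fewest counts was in Nar+Glu. Per 1000 circRNA counts of the library, the levels were 22.9 ± 8.38, 18.9 ± 8.77, 22.1 ± 6.57 and 14.3 ± 6.08 in these groups (SD, n = 3 each).

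The ring of Y20F4.4 on chromosome I (2035684 to 2036009) was exon 5 of a transcript of 6 exons, 326 bases long behind an intron of 4529 bases. Its counts were 12, 11 and 16 in Control, 19, 17 and 8 in Glu, 19, 16 and 14 in DMSO+Glu and 19, 8 and 18 in Nar+Glu. The group means lay between 13.3 and 14.3 per 1000 circRNA counts, and all 4 groups overlapped.

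The ring of tbc-17, a TBC-domain gene of the Rab regulators, lay on chromosome II (12721100 to 12721982) and joined exons 13 and 14 of 16. It was counted 19, 10 and 8 times in Control, 8, 28 and 10 times in Glu, 20, 6 and 11 times in DMSO+Glu and 6, 7 and 13 times in Nar+Glu. The value of 28 in 1 Glu library was the highest, and the groups overlapped.

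The ring of gtl-2, a TRPM cation channel of the excretory cell, lay on chromosome IV (11275681 to 11276616) and held exons 4 to 7 of 26, 784 exonic bases in all. Its flanking introns of 395 and 263 bases were short for these circRNAs, although the other introns of the transcript had a median of 50 bases. It was counted 9, 8 and 12 times in Control, 13, 10 and 10 times in Glu, 6, 14 and 15 times in DMSO+Glu and 20, 11 and 8 times in Nar+Glu. The host mRNA was scarce, at 0.978 to 1.13 FPKM as group means, against 20.6 to 25.2 FPKM for Y53F4B.39. The gtl-2 ring therefore held 136 counts over a host near 1 FPKM, while mbk-2, at 84.7 to 95.4 FPKM, gave a ring with 54 counts.

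The ring of gly-4, a polypeptide N-acetylgalactosaminyltransferase that starts O-linked glycans, lay on chromosome V (19892170 to 19892667) and joined exons 2 and 3 of 10. Its counts were 6, 5 and 5 in Control, 3, 6 and 14 in Glu, 14, 7 and 2 in DMSO+Glu and 10, 10 and 14 in Nar+Glu. Every Nar+Glu count was above every Control count, but the design makes no comparison of those groups, which differ in glucose, solvent and naringin at once.

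The ring of zip-12, a basic leucine zipper transcription factor, was exon 2 of 5 on chromosome III (12329464 to 12329812), 349 bases long. It was counted 1, 1 and 7 times in Control, 4, 0 and 10 times in Glu, 8, 9 and 2 times in DMSO+Glu and 13, 7 and 14 times in Nar+Glu. Scaled to the library, its level was 4.81 ± 2.5 per 1000 in DMSO+Glu and 10.5 ± 2.94 in Nar+Glu, and these 2 groups did not overlap. The difference of 0.87 ± 0.71 (SE) on the log2 scale did not pass edgeR's quasi-likelihood test (adjusted p = 0.849).

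The ring of mbk-2, a DYRK-family kinase of the oocyte-to-embryo transition, lay on chromosome IV (13014614 to 13015115) between introns of 5098 and 8718 bases. It was counted 0, 11 and 2 times in Control, 3, 2 and 3 times in Glu, 6, 6 and 4 times in DMSO+Glu and 3, 4 and 10 times in Nar+Glu. The spread within Control was wider than the distance between any pair of group means.

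The next 5 rings held 30 to 34 counts each and were at 0 in 2 to 4 of the 12 libraries. They came from aagr-2, a gene of the acid alpha-glucosidase family, nhr-65, a nuclear hormone receptor, pbo-1, a calcineurin B homologous protein, nas-38, an astacin metalloprotease, and pqn-41. Their highest level in any library was 4.67 to 7.68 per 1000 circRNA counts. Group means ran from 1.93 to 3.95 for aagr-2, from 1.63 to 3.68 for nhr-65, from 1.09 to 5.14 for pbo-1, from 0.527 to 4.97 for nas-38 and from 0.876 to 3.98 for pqn-41.

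Extremes of length were rare. The shortest ring seen in at least 3 libraries was exon 1 of fkh-9, a forkhead transcription factor, 108 bases long on chromosome X with 4 counts, and the longest was in ZC190.4 on chromosome V, with a span of 983 bases and 7 counts. Chosen after its values were seen, the more abundant of 2 rings of daf-2, the insulin receptor of the worm, lay on chromosome III (3019170 to 3019673) and was counted 1, 0 and 0 times in Control, 3, 0 and 0 in Glu, 8, 3 and 0 in DMSO+Glu and 1, 4 and 5 in Nar+Glu.

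**Figure D4:**
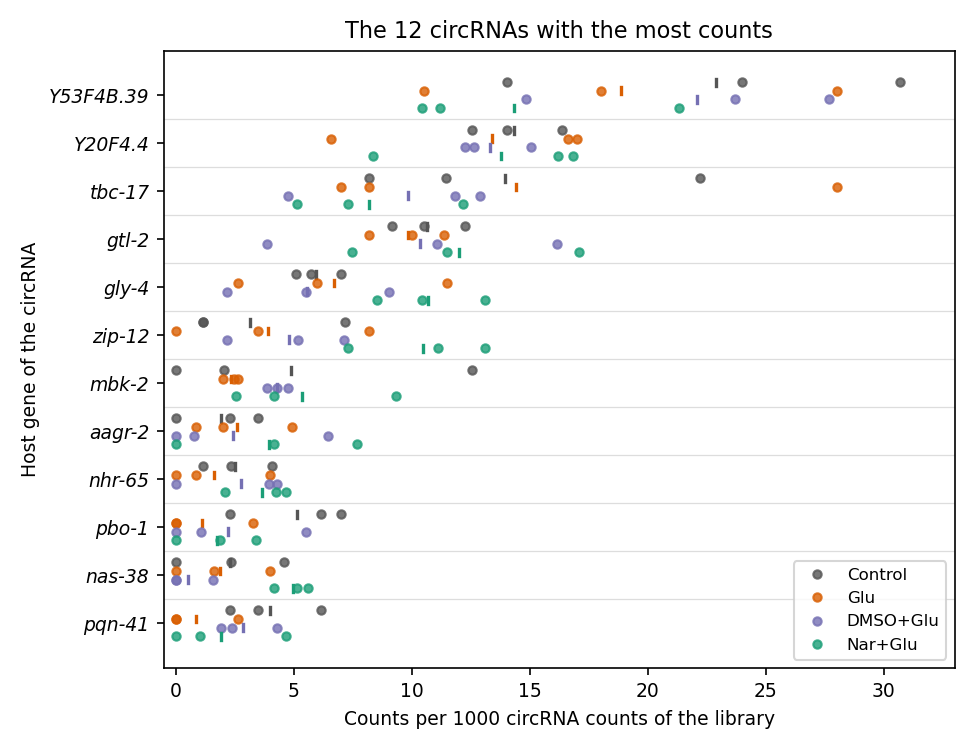
Counts per 1000 circRNA counts of the library for the 12 circRNAs with the most counts, named by host gene, with 1 point per library and a bar at each group mean (3 libraries a group). The groups overlap in most rows, the ring of zip-12 is higher in the 3 Nar+Glu libraries than in the 3 DMSO+Glu libraries, and so is the ring of nas-38.

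The share of circRNA counts held by the 961 circRNAs lay between 26.3% and 32.4% in the 12 libraries, and no group stood apart. It was 30.1%, 30.3% and 28.4% in the Control libraries, 28.4%, 31.6% and 27.1% in Glu, 27.8%, 31.4% and 32.4% in DMSO+Glu and 32.2%, 26.3% and 30.4% in Nar+Glu. The lowest had an exact 95% binomial (Clopper-Pearson) interval of 23.5% to 29.2% and the highest one of 29.4% to 35.5%. Summed over its libraries, Control gave 801 of 2709 counts, Glu gave 971 of 3362, DMSO+Glu gave 1129 of 3744 and Nar+Glu gave 954 of 3200. The group means, in that order, were 29.6% ± 1.03, 29.03% ± 2.31, 30.5% ± 2.41 and 29.6% ± 3.0 (SD, n = 3 each).

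**Figure D5:**
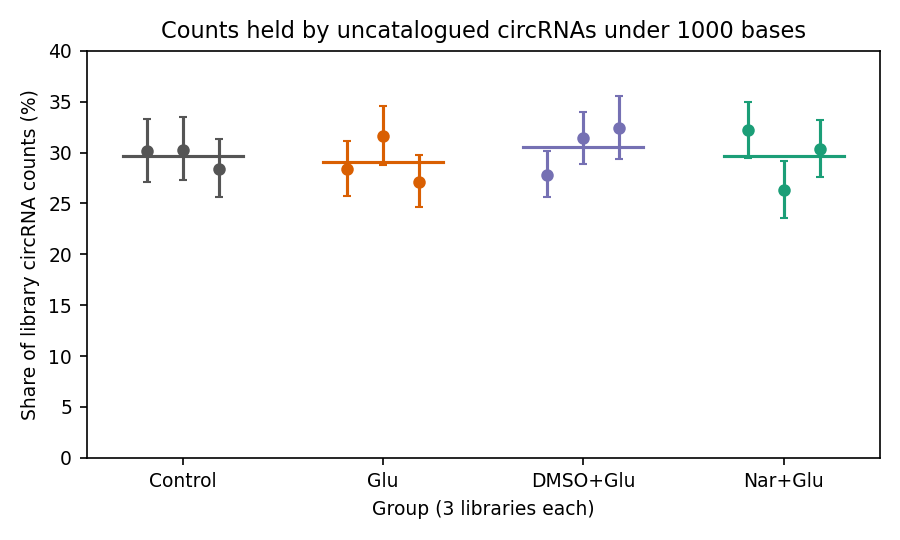
Share of a library's circRNA counts (%) held by uncatalogued circRNAs under 1000 bases, with 1 point and its exact 95% binomial interval per library and a line at each group mean. The 12 libraries lie between 26.3% and 32.4%, and the 4 groups overlap.

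Whether glucose, the solvent or naringin moved this share was asked with exact permutation tests (two-sided), whose smallest p is 0.1 for 3 libraries against 3. Glu minus Control was -0.583 percentage points (p = 0.8), DMSO+Glu minus Glu was 1.5 (p = 0.5) and Nar+Glu minus DMSO+Glu was -0.915 (p = 0.6), each with an adjusted p of 0.8 over the 3 comparisons by this exact test. None of the differences exceeded the spread between libraries. The sign of the first turned without Glu replicate 3 (0.369) or with a span limit of 1500 bases (0.832), and that of the last turned without Nar+Glu replicate 2 (0.740) or DMSO+Glu replicate 3 (0.0204).

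A library showed 108 to 180 of the 961, a number that depends on depth. Reduced to a common depth of 856 counts, the expected number was 113 ± 6.14 for Control, 123 ± 5.51 for Glu, 131 ± 4.25 for DMSO+Glu and 116 ± 12.8 for Nar+Glu (SD, n = 3 each). At that depth every DMSO+Glu library was above every Control library, while Glu overlapped with each of the other 3 groups. Of rings seen in 1 group only, Control had 133, Nar+Glu had 155, Glu had 190 and DMSO+Glu had 222, which is also the order of the total counts of the groups, and 41 rings were seen in all 4.

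Single circRNAs were compared with edgeR's quasi-likelihood test over the 239 circRNAs that had at least 2 counts in at least 3 libraries. That filter kept 65 of the 961, and the other 896 were not tested. At a Benjamini-Hochberg adjusted p below 0.05, edgeR called 0 of the 65 in each of the 3 comparisons, where the share called over all 239 was 0.0%. DESeq2 called 0 as well.

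Glucose was compared first, as Glu minus Control. At an unadjusted p below 0.05 there were 6 of the 239, and 1 of the 65 also passed the looser threshold in the study's methods (p below 0.05 and more than 1.5-fold), which 2.51% of all 239 did. That one was the ring of crh-2, a CREB-like transcription factor, on chromosome II (5183688 to 5184600). It was counted 0, 2 and 3 times in Control and 0 times in all 3 Glu libraries. With a floor of 3 counts for the group at 0, its level was 2.07-fold lower in Glu (adjusted p = 0.794 by edgeR). Folds over this floor leave out the counting error of the other group, so they are not lower limits. The ring of C17D12.3 on chromosome I (11618905 to 11619297) was at 0 in all Control libraries. It was counted 0, 4 and 2 times in Glu, 1.61-fold above the floor for Control (adjusted p = 0.794 by edgeR).

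The second value is uncertain because the annotation holds another gene of the same name on the other strand (ring at 11624081 to 11624473, 3 counts). Both rings have 3 exons and 295 exonic bases, and the aligner could have split reads between the copies. Groups did not overlap for 4 of the 65 circRNAs, and for 5.02% of all 239. The median log2 difference was 0.00 over the 65 and 0.14 over the 239.

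In the comparison of the solvent, DMSO+Glu minus Glu, 12 of the 239 were at an unadjusted p below 0.05, and 3 of the 65 passed the looser threshold against 5.02% of all 239. They were crh-2, vhp-1 and C34H4.5, each at 0 in the 3 Glu libraries. The crh-2 ring was counted 3, 7 and 0 times in DMSO+Glu, 2.99-fold above the floor for Glu (adjusted p = 0.647 by edgeR). The ring of vhp-1, a phosphatase that turns off stress-activated MAP kinases, lay on chromosome II (5334528 to 5334801). It was counted 0, 5 and 2 times in DMSO+Glu, 2.1-fold above the floor for Glu (adjusted p = 0.647 by edgeR).

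In both rings 1 DMSO+Glu library was also at 0, so the groups overlapped. For 3 of the 65 circRNAs the groups did not overlap, and for 8.79% of all 239. The comparison with Control and the comparison with DMSO+Glu share the 3 Glu libraries, so the zeros of crh-2 and vhp-1 in Glu enter both.

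For naringin, Nar+Glu minus DMSO+Glu, 13 of the 239 were at an unadjusted p below 0.05, and 3 of the 65 passed the looser threshold against 5.44% of all 239. The ring of Y71G12B.23 on chromosome I (1670969 to 1671255) was exon 5 of a transcript of 6. This ring was counted 2, 4 and 5 times in DMSO+Glu and 0 times in all 3 Nar+Glu libraries. With the floor for Nar+Glu it was 3.13-fold lower there (adjusted p = 0.824 by edgeR). It was counted 1, 4 and 1 times in Control and 1, 0 and 0 times in Glu, so Glu and Nar+Glu were the low groups. The ring passed the count filter only through DMSO+Glu, the group where it was high. The linear RNA of Y71G12B.23 was at 4.05 ± 0.837 FPKM in DMSO+Glu, against 5.18 ± 1.51 FPKM in Nar+Glu (SD, n = 3), with an adjusted p of 0.266 by limma.

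The ring of hmr-1, the classical cadherin of adherens junctions, was exon 22 of a transcript of 31 on chromosome I (11094103 to 11094332) behind an intron of 18310 bases. It was counted 2, 2 and 3 times in DMSO+Glu, which alone met the count filter, and 0 times in all Nar+Glu libraries. With the floor for Nar+Glu it was 1.99-fold lower there (adjusted p = 0.824 by edgeR). Summed over its libraries, Control had 1 count of this ring and Glu had 8. The ring of nas-38 went the other way, with 0, 2 and 0 counts in DMSO+Glu and 6, 4 and 6 in Nar+Glu. That was 9.36 times the level (95% counting interval 2.20 to 83.9, adjusted p = 0.824 by edgeR), and Control had 2, 4 and 0 counts.

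For the naringin comparison, the groups did not overlap for 4 of the 65, and for 7.11% of all 239. The 65 had a median log2 difference of -0.11 and the 239 one of -0.07. The counts of 1, 3 and 3 at the looser threshold moved with single libraries. They were 0 without Control replicate 3 or Glu replicate 2 and 2 without Glu replicate 1 in the glucose comparison, 1 without Glu replicate 2 in the solvent comparison, and 1 without DMSO+Glu replicate 3 or Nar+Glu replicate 2 in the naringin comparison.

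The linear RNA of the host genes was the second readout, tested with limma on log2(FPKM + 1) for 759 hosts among 12151 genes. With glucose, 223 hosts (29.4%) changed at an adjusted p below 0.05, 109 higher and 114 lower, where 31.3% of all genes changed, 12.6% higher and 18.7% lower. Scaling the libraries by the median ratio moved that split to 141 higher and 77 lower, while the share of higher calls over all genes went from 40.2% to 53.8%. Leaving out Glu replicate 3 left 107 hosts called (14.1%), against 16.6% of all genes. The median log2 difference was -0.05 over the hosts and -0.06 over all genes.

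The largest rises among hosts with glucose were in K06H6.2 and lec-2, a galectin. K06H6.2 was listed at 0.168, 0 and 0 FPKM in Control and at 2.07, 3.73 and 3.03 in Glu (adjusted p = 3.1e-05 by limma). This gene met the filter of a mean above 1 FPKM only through the glucose-fed groups, where it was high. With no filter its adjusted p was 4.4e-05 by limma. The mRNA of lec-2 was 44.6, 40.6 and 39.0 FPKM in Control and 112.03, 105 and 105 in Glu, a log2 difference of 1.35 ± 0.06 (SE, adjusted p = 3.4e-09 by limma). The largest falls were in ilys-5, an invertebrate-type lysozyme, by 0.88 ± 0.07 on the log2 scale from 148 to 80.2 FPKM as group means, and in spp-17, a saposin-like protein, by 0.60 ± 0.09 from 54.4 to 35.5 FPKM. These 4 hosts gave rings with 1 or 2 counts in all, in 1 library each, so nothing can be read of the rings beside the mRNA.

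The hosts of the rings with the most counts were tested too. With glucose, Y53F4B.39 fell by 0.28 ± 0.07 on the log2 scale, from 25.2 ± 0.999 to 20.6 ± 0.330 FPKM (SD, n = 3; adjusted p = 0.00997 by limma), and mbk-2 fell by 0.17 ± 0.06 (adjusted p = 0.0451 by limma). Y20F4.4, tbc-17, gtl-2, gly-4 and zip-12 did not pass the test in any of the 3 comparisons. The host of the vhp-1 ring rose by 0.46 ± 0.08 with glucose, from 14.2 to 20.0 FPKM (adjusted p = 0.00116 by limma). Its ring went from 4 counts to 0, a difference that did not pass the test (adjusted p = 0.794 by edgeR).

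With the solvent, 4 hosts (0.527%) changed, against 1.25% of all genes. Y48E1B.8 was higher by 0.70 ± 0.10 on the log2 scale, and Y54G2A.11, lec-2 and F22B7.9 fell by 0.48, 0.49 and 0.51, all by limma. The call of F22B7.9 (adjusted p = 0.0436 by limma) was lost under 4 of 5 other settings and in each fit that left out 1 of the 6 libraries.

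With naringin, 79 hosts (10.4%) changed against 9.87% of all genes. Higher were 54 hosts (7.11%, against 4.87% of all genes) and lower were 25 (3.29%, against 5.0%). Under median-ratio scaling 15.7% were called, 90 higher and 29 lower, against 13% of all genes. The calls over all genes fell with single libraries left out, and those of the hosts with them. Leaving out DMSO+Glu replicate 1 or 3 gave 29 or 30 calls, and leaving out Nar+Glu replicate 1, 2 or 3 gave 34, 43 or 35, which is 3.82% to 5.67% of the hosts, against 4.56% to 5.87% of all genes.

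The largest rises among hosts with naringin were in oac-51, an O-acyltransferase family gene, and F49D11.6. The values of oac-51 were 1.70, 2.24 and 1.63 FPKM in DMSO+Glu and 4.83, 4.79 and 4.07 in Nar+Glu, a log2 difference of 0.97 ± 0.15 (adjusted p = 0.0015 by limma). The falls were led by Y48E1B.8 (by 0.61 ± 0.10) and spp-17 (by 0.44 ± 0.09). Each of these hosts held 1 or 2 circRNA counts. The naringin and solvent comparisons share the 3 DMSO+Glu libraries. There Y48E1B.8 had a mean of 23.7 FPKM, against 15.2 FPKM under naringin and 14.2 FPKM under glucose alone. Of the other hosts called with the solvent, lec-2 and Y54G2A.11 rose with naringin by 0.76 and 0.40 (both called by limma). F22B7.9 did not pass with naringin. With the solvent, oac-51, F49D11.6 and spp-17 did not pass. How far the shared libraries enter these changes was not tested.

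The tissue lists moved beside the hosts. With glucose, limma called 25 of 56 muscle genes higher and 1 lower, 24 of 58 neuron genes higher and 2 lower, and 37 of 51 germline genes lower and 0 higher, where 12.6% of all genes were higher and 18.7% lower. Median-ratio scaling gave 34 higher and 1 lower for muscle, 35 and 2 for neuron, and 0 and 26 for germline. With naringin it called 19 of the neuron genes higher and 0 lower, 7 of the muscle genes higher and 5 lower, and 7 of the germline genes lower and 0 higher, where 4.87% of all genes were higher and 5.0% lower. No gene of these lists was listed at 0 in any library. The summed FPKM of the germline list was 7097 to 7822 in Control, 6212 to 6854 in Glu, 6392 to 6827 in DMSO+Glu and 5909 to 6296 in Nar+Glu, while that of the muscle list was 1778 to 2039, 2176 to 2283, 2076 to 2174 and 1985 to 2104 and that of the neuron list 595 to 690.2, 652 to 736, 659 to 731 and 780 to 828 in the same order. The part of these lists in the host changes was not tested.

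Genes that act on splicing and on circRNAs were looked at as a list, with 28 of 30 tested. Of these, mbl-1, unc-75 and exc-7 are also in the neuron list, so their changes enter both lists. With glucose, 2 rose and 7 fell, and over all genes 12.6% were called higher and 18.7% lower. The RNA-binding proteins exc-7 and sup-12 rose by 0.28 and 0.41 on the log2 scale, while the adenosine deaminases adr-1 and adr-2, which edit double-stranded RNA, fell by 0.19 and 0.28. Median-ratio scaling changed this to 4 higher and 4 lower, and adr-1 was no longer called. With naringin, where 9.87% of all genes were called, unc-75 (0.56), sup-12 (0.47), exc-7 (0.38) and mec-8 (0.36) rose and hel-1, an RNA helicase, fell by 0.21, all by limma, and these 5 were also called under median-ratio scaling. With the solvent alone limma called 0 of the 28, and 0 had an unadjusted p below 0.05.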

How the data were processed

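Whole-worm RNA from 12 libraries was analysed, 3 for each of 4 groups taken from the labels. Per the study's methods, the authors obtained the deposited raw counts of circRNAs with STAR 2.5.2b and CIRCexplorer2, and the deposited gene FPKM with HISAT2 2.1.0 and StringTie 1.3.3 on WBcel235; whether a count is a read or a read pair is not given in the sources used here. Of the start positions, 98.9% met an exon start of the annotation once raised by 1 (0.644% as deposited), so starts are printed raised by 1. Exons, introns and hosts were taken from the Ensembl annotation of WBcel235, using 1 transcript per circRNA (protein-coding first, then with an exon upstream, then the longest). Hosts were matched to the FPKM table by symbol, gene identifier or sequence name for 918 of 961 circRNAs. Sequences were not used here.

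CircRNA counts (at least 2 in at least 3 libraries) were fitted over all 12 libraries with edgeR 4.0.16 in R 4.3.3 and TMM scaling. Genes with a mean above 1 FPKM were fitted as log2(FPKM + 1) with limma 3.58.1 and a variance trend, so fold changes of low genes are understated. Adjusted p-values are Benjamini-Hochberg over all features of a comparison. Folds against a group at 0 use a floor of 3 counts over that group. They leave out the counting error of the other group and are not lower limits. Named circRNAs were the 12 with the most counts, the 2 with the smallest p in each comparison, the shortest and longest in at least 3 libraries, and those of the 3 hosts with the most members (4 with ties, of which the 1 with the highest number is not reported here); named hosts were theirs and the 2 largest called rises and falls of each comparison. C34H4.5 and the ring of daf-2 were named after their values were seen. The members and lists were chosen with earlier results of these data known. Scripts were tested on simulated data. Alternatives were other spans, denominators, filters, scalings, pseudocounts, DESeq2 1.42.0, a fit to 6 libraries, a replicate block and leaving out each library. The labels do not say whether replicate numbers pair samples, and the main fits used no pairing.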

Additional observations from a re-analysis of the deposited data

How the results depend on the processing

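No circRNA was called under any alternative in any comparison, which at this depth does not show that levels were unchanged. For the share of counts, Glu minus Control was 0.832 with a span below 1500 bases and -1.87 to 0.369 with 1 library left out. DMSO+Glu minus Glu was 0.138 with that span and 0.544 to 2.86 with 1 library left out. Nar+Glu minus DMSO+Glu was -0.00509 with that span, 0.381 when only members passing the count filter were summed and -2.28 to 0.740 with 1 library left out. The number of members past the looser threshold, 1, 3 and 3, was in the glucose comparison 2 with a filter of 1 count in 2 libraries or with no filter, and 0 with only the 6 libraries compared, with the replicate block or with DESeq2. In the solvent comparison it was 5 with the filter of 1 count and 1 with 6 libraries or DESeq2. With 1 library left out it was 0 to 2, 1 to 4 and 1 to 3. Called hosts made up 14.1% to 29.1%, 0.395% and 3.82% to 10.1% of those tested with 1 library left out, and 15.7% with median-ratio scaling in the naringin comparison. The cause of these shifts was not tested, apart from the fewer libraries and features that some settings use. The labels give same-numbered libraries only that number in common. Residuals of same-numbered libraries correlated at -0.177 to 0.197 for circRNAs and -0.100 to 0.128 for genes over 18 pairs each. The linear RNA of pqn-41 was nevertheless highest in replicate 1 of every group. Whether single genes share a batch by replicate number was not tested. With the replicate block the share differed by -0.583, 1.5 and -0.915 (exact sign-flip p = 0.75, 1.0 and 0.75), and 29.1%, 0.395% and 9.88% of hosts were called. Of F22B7.9 the call was lost with the block (adjusted p = 0.0592 by limma), with a pseudocount of 0.1 (0.0675), with no filter (0.0516) and with 6 libraries (0.0519). Depth limits single circRNAs, of which 896 were too rare to test.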
